A study of Homo sapiens with 12 samples.

Results

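The galectins are a family of proteins that bind β-galactoside sugars on glycoproteins and glycolipids, and the group described here holds the 9 genes LGALS1, LGALS2, LGALS3, LGALS4, LGALS8, LGALS9, LGALS13, LGALS14 and LGALS16. The genes were taken by symbol from the 60666 genes listed in the count data. LGALS14 was chosen on its strong rise with Molidustat in these libraries, so its values with Molidustat and DMSO are given as a description with no test. The other galectins were added because they are paralogs of LGALS14, and LGALS13 and LGALS16 are also its neighbours on chromosome 19. Of the 9 galectins, 6 had at least 1 count and 3 (LGALS3, LGALS8 and LGALS14) passed the filter on low counts. That filter kept 14274 genes in all. LGALS14 passed it only through the Molidustat libraries, where it was high, so the number of galectins that passed supports nothing about the family.

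The data are 3′ RNA-seq libraries of Huh7 cells, an established human hepatocellular carcinoma line. The 4 groups were DMSO for 24 h, Molidustat for 24 h, DMSO for 48 h and Molidustat for 48 h, with 3 libraries in each and Molidustat at 25 µM. All groups were grown in the same high-glucose medium with serum, and no group carried a genetic change. The study's methods speak of biological replicates and its record of triplicate RNA extractions, so the p-values measure the spread between these libraries, which may be technical. Counts on genes were 4033489, 2462623 and 4744982 in DMSO 24 h replicates 1 to 3, and 2703897, 8202125 and 5101950 in Molidustat 24 h replicates 1 to 3. They were 6856097, 1499273 and 9179389 in DMSO 48 h and 4249851, 2312396 and 5122636 in Molidustat 48 h. DMSO 48 h replicate 2 stood apart from the rest. It was the shallowest library, 50.4% of its listed reads fell outside annotated features while the remaining 11 had 17.1 to 25.6%, and its correlation with them across genes (log2 CPM) was 0.71 to 0.78. Beside many values that it moved, the value without it is given. Levels are CPM values, that is counts divided by a library total scaled with TMM, and are not divided by transcript length.

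Galectins differ in architecture. Galectin-1, galectin-2, galectin-13, galectin-14 and galectin-16 have a single carbohydrate-recognition domain, galectin-3 joins such a domain to a long flexible tail, and galectin-4, galectin-8 and galectin-9 carry a pair of domains on one chain. They act outside the cell by cross-linking glycoproteins and inside it by marking damaged endosomes and lysosomes whose lumenal sugars are exposed. LGALS13, LGALS14 and LGALS16 form a primate gene cluster best known for expression in the placenta, mainly in trophoblast, and CLC in the same cluster encodes the Charcot-Leyden crystal protein of eosinophils. Molidustat inhibits the prolyl hydroxylases that mark the α subunits of hypoxia-inducible factors (HIF) for degradation, and HIF binds DNA at a core of ACGTG or GCGTG.

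The 3 placental paralogs are printed here because only one of them was counted in Huh7 cells although their upstream sequences are close. Each line gives the 120 bases before the annotated start (RefSeq, GRCh38.p14, plus strand of chromosome 19), which are chr19:39704361-39704480 for LGALS14, chr19:39602404-39602523 for LGALS13 and chr19:39655793-39655912 for LGALS16. Capitals in LGALS14 mark the 18 bases that neither paralog shares. Capitals in LGALS13 and LGALS16 mark the 27 and 24 bases that differ from LGALS14 or have no partner in it.
LGALS14: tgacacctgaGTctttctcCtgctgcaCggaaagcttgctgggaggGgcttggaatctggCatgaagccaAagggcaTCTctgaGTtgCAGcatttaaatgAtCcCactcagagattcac
LGALS13: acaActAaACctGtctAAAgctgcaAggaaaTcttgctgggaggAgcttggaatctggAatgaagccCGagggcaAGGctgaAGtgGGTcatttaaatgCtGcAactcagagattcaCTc
LGALS16: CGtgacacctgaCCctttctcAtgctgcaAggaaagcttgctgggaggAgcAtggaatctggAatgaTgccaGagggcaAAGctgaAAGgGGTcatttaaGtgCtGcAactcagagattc

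Over the 250 bases upstream, LGALS14 was identical to LGALS13 at 84.92% and to LGALS16 at 85.71% of aligned columns, and LGALS13 and LGALS16 at 87.01%. The letters TTTAAA, which read the same on both strands, begin 27 bases before the start of LGALS14 and 29 bases before that of LGALS13, and have no match in LGALS16. They occur in 12.24% of all 35116 RefSeq promoter windows of the same length (250 bases before to 50 after a start). Neither ACGTG nor GCGTG occurs on either strand of the LGALS14, LGALS13 or LGALS16 window. ACGTG is found in 21.41%, GCGTG in 36.54% and at least one of them in 48.45% of all windows. Among the 9 galectin genes with a window, only LGALSL holds either core. A missing match says only that these letters are not in this window.

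LGALS14 (ENSG00000006659, GRCh38 chromosome 19, 39704481 to 39709444, plus strand) encodes galectin-14. In DMSO at 24 h it had 0 counts in each of the 3 libraries, which allows levels of up to 0.689, 1.16 and 0.62 CPM (3 counts per library). With Molidustat at 24 h it had 46, 65 and 70 counts, or 16.5, 7.89 and 13.5 CPM. In DMSO at 48 h it had 3, 1 and 11 counts, or 0.41, 1.06 and 1.14 CPM, of which the 1 count is that of DMSO 48 h replicate 2. With Molidustat at 48 h it had 180, 205 and 273 counts, or 40.5, 87.9 and 51.3 CPM. Every Molidustat library thus lay above every DMSO library, and every 48 h Molidustat library above every 24 h one. PCR copies may be among the counts, so these limits cover counting error only.

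The order of the groups was Molidustat 48 h (59.9 ± 24.9 CPM, SD, n = 3), Molidustat 24 h (12.6 ± 4.36), DMSO 48 h (0.869 ± 0.402) and DMSO 24 h (0 in all libraries). The Molidustat groups did not overlap each other or the DMSO groups. The order of the DMSO groups was not resolved library by library, since the DMSO 48 h levels rest on 3, 1 and 11 counts. Of these levels, 0.41 CPM lies under the limit of each DMSO 24 h library, and 1.06 and 1.14 CPM under that of replicate 2 only. At 24 h, LGALS14 was at least 49.6-fold higher with Molidustat, computed against a floor of 3 counts over the DMSO group (0.254 CPM) and resting on 181 counts against 0. At 48 h the ratio of the group means was 68.9-fold, on 658 counts against 15, with a fitted log2 fold change of 6.14. As background, edgeR called 33 of the 14274 genes tested higher with Molidustat at 24 h (0.231%) and none lower (0%), where a call needed a Benjamini-Hochberg adjusted p under 0.05 together with a change of more than 1 on the log2 scale. At 48 h it called 30 higher (0.21%) and 3 lower (0.021%). Without DMSO 48 h replicate 2 it called, of 15253 genes, 111 higher (0.728%) and 5 lower (0.0328%) at 24 h. At 48 h these were 48 (0.315%) and 5 (0.0328%). In bulk libraries, fewer cells that express a gene and less RNA per cell cannot be told apart.

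**Figure D1:**
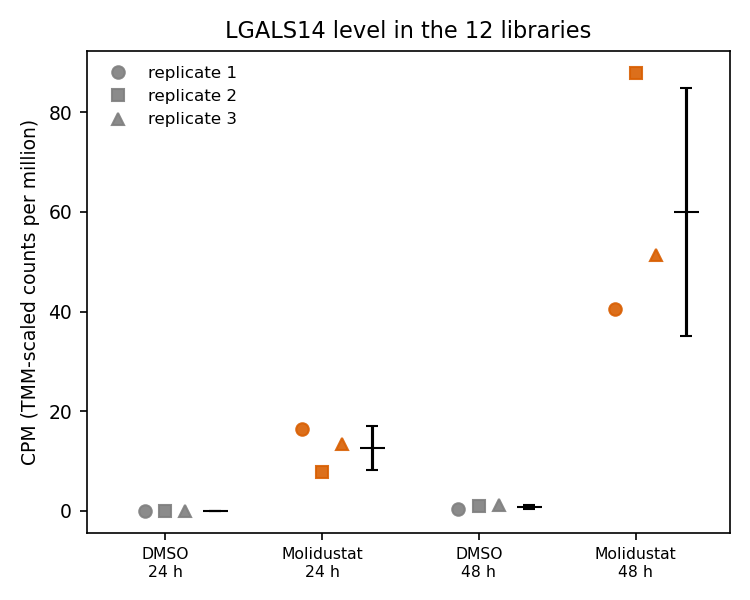
LGALS14 level (CPM, TMM) in each of the 12 libraries by group, with the group mean and SD (n = 3). The 3 DMSO 24 h libraries sit at 0, the DMSO 48 h libraries between 0.41 and 1.14, the Molidustat 24 h libraries between 7.89 and 16.5 and the Molidustat 48 h libraries between 40.5 and 87.9.

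Between 24 h and 48 h of Molidustat, LGALS14 was higher by 2.26 on the log2 scale (SE 0.49), without overlap between the groups. The choice of the gene rested on these libraries, so this difference too is given with no test. Of all genes tested, edgeR called 0% between the times in Molidustat, while 341 genes were higher and 313 lower at an unadjusted p under 0.05. In 13.9% of genes these groups did not overlap. In DMSO, the only gene called between the times was CXCL8 (0.00701% of genes), and groups did not overlap for 11.9% of genes. No gene was called (0%) for a difference of the Molidustat response between the times by edgeR, and 168 had a larger and 800 a smaller log2 fold change at 48 h at an unadjusted p under 0.05. Neither LGALS3 nor LGALS8, the other galectins that passed the filter, was called between the times or for this difference. At an unadjusted p under 0.05, LGALS3 was lower at 48 h than at 24 h of Molidustat, where 4.58% of all genes passed. Its log2 fold change there was -0.87 (SE 0.37), and -0.45 without Molidustat 24 h replicate 2. LGALS8 did not pass in these comparisons.

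The annotated 3′ ends of LGALS14 and its placental paralogs differ in sequence. Of the 624 distinct words of 50 bases within the last 500 bases of the annotated LGALS14 transcripts, 3 (0.48%) are shared with another gene, LGALS13, and LGALS16 shares 0 words with any gene. LGALS13 (ENSG00000105198) and LGALS16 (ENSG00000249861) each had 0 counts in all 12 libraries, which allows up to 0.0516 CPM over the libraries together (3 counts). The mean of LGALS14 with Molidustat was 12.6 CPM at 24 h and 59.9 CPM at 48 h. No exon of LGALS13, LGALS14 or LGALS16 overlaps an exon of another gene in GENCODE release 44.

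The genes around LGALS14 either had no counts or were not called. LGALS13 starts 102 kb and LGALS16 48.6 kb before LGALS14, and CLC 33.5 kb after it on the opposite strand. Within 500 kb on either side, 64 genes are annotated, of which 58 are in the count data, 29 had a count and 17 were tested. The nearest counted genes are EID2, which starts 164.3 kb before and had 931 counts, and DYRK1B, which starts 129.7 kb after and had 278 counts. The 285.2 kb between them hold 18 other listed genes, among them the protein-coding LGALS13, LGALS16, CLC and LEUTX, and 0 of the 18 had a count in any library.

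None of the 17 neighbours tested was called at either time by edgeR, DESeq2 or limma-voom. At an unadjusted p under 0.05 edgeR had 0 of them at 24 h, where 5.25% of all genes passed, and 3 of them (EID2 and FBL higher, ZNF780A lower) at 48 h, where 13.33% did. Their median log2 fold change was -0.14 at 24 h and -0.003 at 48 h, beside medians over all genes of 0.02 and 0.01. Of the nearest 4 on the side of LGALS13, the log2 fold changes at 24 h and 48 h were 0.07 and 1.23 for EID2 and 0.69 and 0.77 for EID2B, 2 genes for EP300-interacting inhibitors of differentiation. They were -0.22 and -0.52 for TIMM50, a subunit of the mitochondrial import machinery, and -0.24 and -0.003 for SUPT5H, a transcription elongation factor. On the side of CLC they were 0.57 and 1.87 for the kinase gene DYRK1B (SE 0.93 and 0.97), -0.18 and 0.78 for FBL, which encodes the nucleolar methyltransferase fibrillarin, and 0.19 and 0.63 for the pseudogene PRR13P5. PSMC4, a proteasome ATPase gene, had -0.32 and 0.23. The range over the 17 ran from -1.41 (PLEKHG2) to 1.54 (ZNF780B) at 24 h and from -1.53 (ZNF780A) to 1.87 (DYRK1B) at 48 h. Without DMSO 48 h replicate 2, the 48 h values were -0.72 for ZNF780A, 0.44 for FBL and -0.17 for PSMC4, the range ran from -0.91 (ZNF780B) to 1.54 (DYRK1B), and none of the 17 was called.

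**Figure D2:**
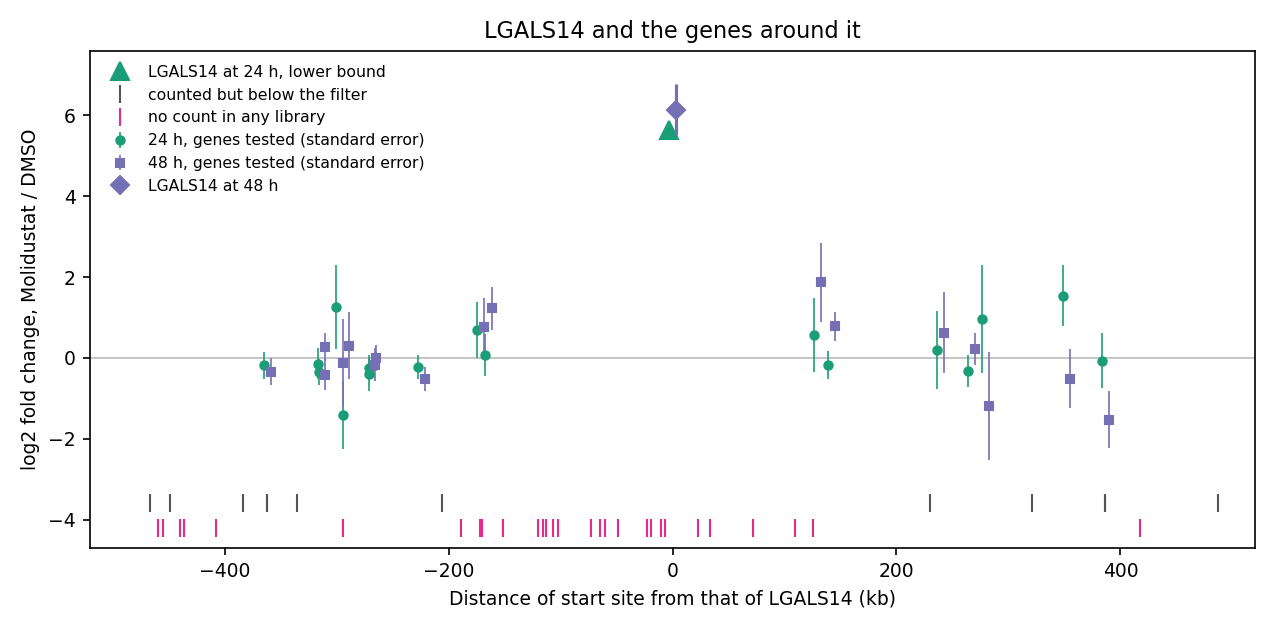
Log2 fold change with Molidustat of the genes tested within 500 kb of LGALS14, by distance of their start from that of LGALS14 (kb), at 24 h (circles) and 48 h (squares), with bars for 1 SE; the triangle is the lower bound for LGALS14 at 24 h (49.6-fold) and the diamond its fitted 48 h value of 6.14. The 17 neighbours lie between -1.53 and 1.87, none of them called, and the tick marks at the bottom are genes below the filter or, in the span around LGALS14, without any count.

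The other galectins that Huh7 cells expressed at measurable levels were LGALS3 and LGALS8, and neither was called in any comparison. LGALS3 (ENSG00000131981, chromosome 14, 55124110 to 55145423) encodes galectin-3. It had 82.2, 59.7 and 97.9 CPM in DMSO 24 h, 105.0, 193.7 and 84.4 in Molidustat 24 h, 84.3, 75.6 and 82.6 in DMSO 48 h, and 48.1, 60.1 and 101.5 in Molidustat 48 h. The groups overlapped at both times. The log2 fold change with Molidustat was 0.68 (SE 0.37, edgeR adjusted p = 0.999) at 24 h and -0.21 (SE 0.37, adjusted p = 0.867) at 48 h. The difference between these responses was -0.89 (SE 0.52, adjusted p = 0.816). With 1 library left out, the 24 h value ranged from 0.24 (without Molidustat 24 h replicate 2, which held 193.7 CPM) to 0.89 (without Molidustat 24 h replicate 3). The 48 h value ranged from -0.59 (without Molidustat 48 h replicate 3) to -0.001 (without Molidustat 48 h replicate 1), and the difference from -1.26 to -0.47.

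LGALS8 (ENSG00000116977, chromosome 1, 236518000 to 236552981) encodes galectin-8, which recruits the autophagy receptor CALCOCO2 to damaged vesicles. It had 55.6, 32.7 and 30.6 CPM in DMSO 24 h and 52.7, 58.5 and 56.1 in Molidustat 24 h, where DMSO replicate 1 lay among the Molidustat libraries. In DMSO 48 h it had 29.3, 22.4 and 30.7 CPM and in Molidustat 48 h 51.7, 45.0 and 61.8, without overlap. The log2 fold change was 0.49 (SE 0.32, edgeR adjusted p = 0.999) at 24 h and 0.93 (SE 0.32, adjusted p = 0.233) at 48 h, so the separation at 48 h did not pass the threshold over all genes. By edgeR its unadjusted p at 48 h was under 0.05, as was that of 13.33% of all genes. The adjusted p at 48 h was 0.0931 by DESeq2 and 0.0827 by limma-voom. The 24 h value was 0.82 without DMSO 24 h replicate 1 and 0.32 without DMSO 24 h replicate 3, and the 48 h value ranged from 0.79 to 1.02 with 1 library left out. Groups did not overlap for 12.3% of all genes at 24 h and for 18% at 48 h. Exons of LGALS8 overlap those of HEATR1 (2253 counts in all) and LGALS8-AS1 (120 counts) on the opposite strand, and since the strand setting of the counting is not given, part of these reads may belong to either gene.

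LGALS1, the gene of galectin-1, and LGALS2, that of galectin-2, were near the limit of detection. LGALS1 (ENSG00000100097) had between 0 and 9 counts per library, or 0 to 1.54 CPM, and LGALS2 (ENSG00000100079) between 0 and 27 counts, or 0 to 3.19 CPM. For neither did the DMSO and Molidustat libraries separate at any time. LGALS4 (ENSG00000171747), known from the gut epithelium, had 1 count in DMSO 48 h replicate 1 and 4 counts in DMSO 48 h replicate 2 and 0 in the other 10 libraries. LGALS9 (ENSG00000168961) had 0 counts everywhere. For LGALS9, 36.86% of the 3′ words are shared with LGALS9B, LGALS9C or other copies, whose reads a counter may discard, so its 0 is less certain than those of LGALS13 and LGALS16.

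Of the galectin family outside the 9 genes, 8 of 9 listed were matched, and only LGALSL, which encodes a galectin-like protein, had counts. LGALS7, LGALS7B, LGALS9B, LGALS9C, LGALS12, CLC and GRIFIN were at 0 in all libraries. LGALSL (ENSG00000119862) had 28.5, 32.7 and 45.9 CPM in DMSO 24 h, 60.9, 72.8 and 35.4 in Molidustat 24 h, 40.0, 161.8 and 43.8 in DMSO 48 h, and 61.6, 31.3 and 50.2 in Molidustat 48 h. DMSO 48 h replicate 2 was the highest of all 12. The log2 fold change was 0.66 (SE 0.49, edgeR adjusted p = 0.999) at 24 h and -0.73 (SE 0.49, adjusted p = 0.582) at 48 h. Without that library the 48 h value turned to 0.18 (SE 0.37, adjusted p = 0.994).

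**Figure D3:**
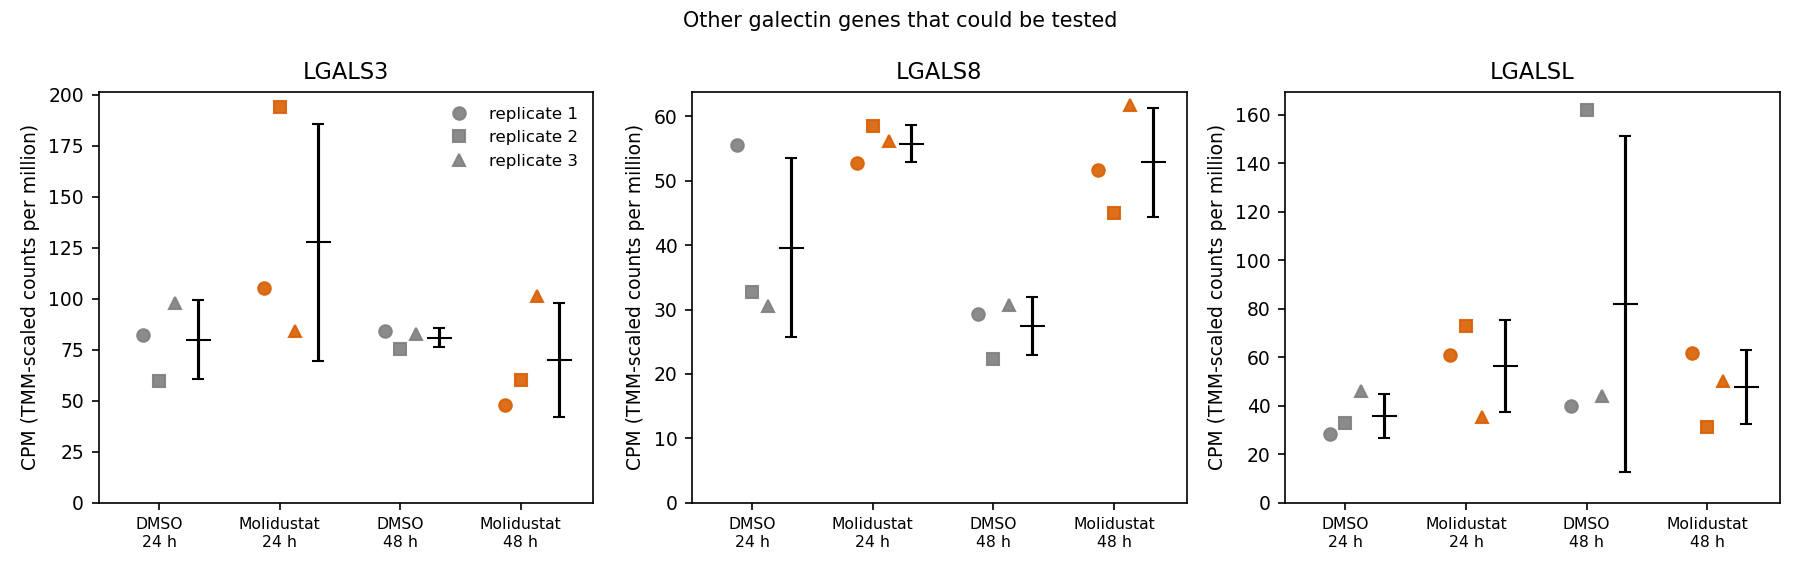
Levels (CPM, TMM) of LGALS3, LGALS8 and LGALSL in the 12 libraries by group, with points for replicates and a bar for the group mean and SD (n = 3). LGALS3 and LGALS8 lie between 22.4 and 193.7 CPM, only LGALS8 at 48 h separates the treatments, and LGALSL has its highest value of 161.8 in DMSO 48 h replicate 2.

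The genes most like LGALS14 were taken as the 10 with the highest Pearson correlation of log2 CPM over the 12 libraries, which share the treatment that separates them, so r is a description. They were INSIG2 (r = 0.973), SPAG4 (0.948), TXNIP (0.943), SLC16A3 (0.943), PPP1R3G (0.938), C4orf3 (0.937), ARG1 (0.936), HES4 (0.934), BNIP3 (0.933) and EPO (0.931). Without DMSO 48 h replicate 2, r was 0.94 to 0.98 for these 10. INSIG2, which retains the sterol sensor SCAP in the endoplasmic reticulum, had means of 51.7 ± 3.72 CPM in DMSO 24 h, 195.1 ± 33.2 in Molidustat 24 h, 84.7 ± 14.7 in DMSO 48 h and 299.8 ± 39.8 in Molidustat 48 h (SD, n = 3). It has the group order of LGALS14, with a log2 fold change for Molidustat that was 1.91 at 24 h and 1.83 at 48 h. EPO, the gene of erythropoietin, was like LGALS14 at 0 in all DMSO 24 h libraries. Its means were 23.8 ± 15.3 CPM in Molidustat 24 h, 5.63 ± 2.97 in DMSO 48 h and 71.5 ± 19.6 in Molidustat 48 h.

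ARG1, the arginase of the urea cycle, also had its highest mean in Molidustat 48 h, at 279.8 ± 84.9 CPM against 102 ± 34.3 in Molidustat 24 h. SLC16A3, which exports lactate, had 41.5 ± 11.1 in Molidustat 24 h and 63.0 ± 10.1 in Molidustat 48 h. TXNIP, an inhibitor of glucose uptake, and BNIP3, a mitophagy receptor, differed most from LGALS14 in their time course. From 24 h to 48 h of Molidustat their log2 fold changes were -0.05 and 0.04 beside 2.26 for LGALS14. The rest of the genes like LGALS14 were also below it, from 0.33 (C4orf3) to 1.57 (EPO), with 0.62 for INSIG2. Of the 8 genes like LGALS14 that have a RefSeq promoter window, 7 hold ACGTG or GCGTG in at least one window, beside 48.45% of all single windows. Several of them have more than one window, so the shares are not over the same unit.

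**Figure D4:**
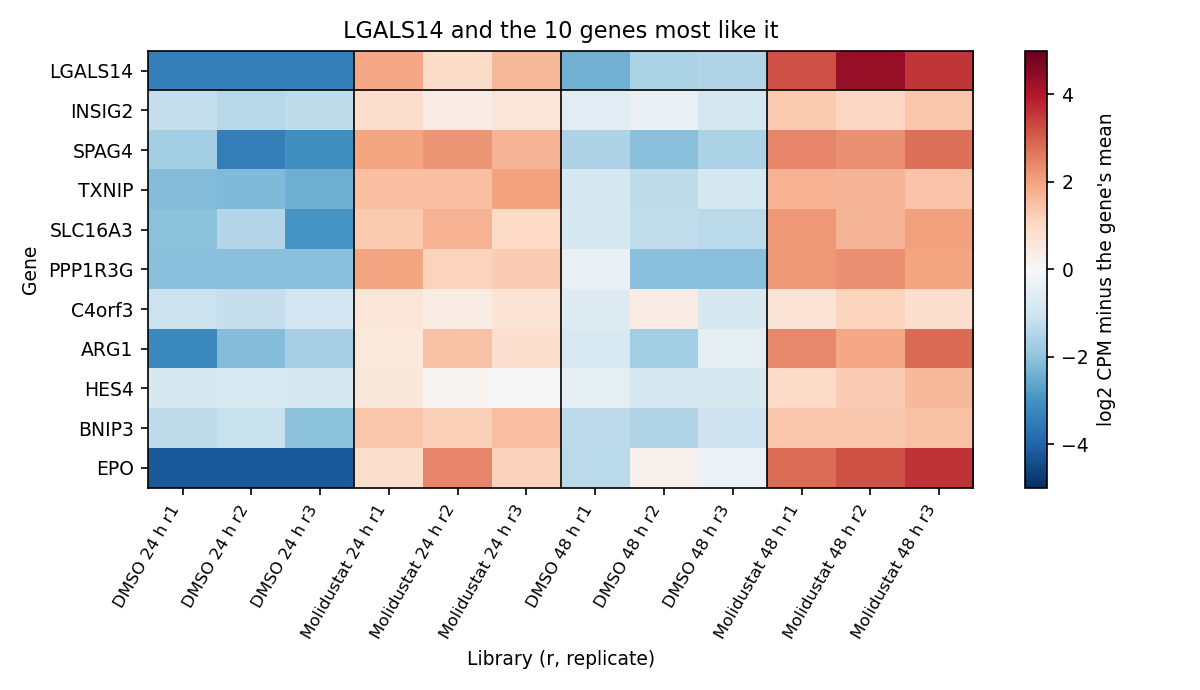
Log2 CPM of LGALS14 and the 10 genes with the highest correlation with it over the 12 libraries, each gene centred on its own mean (colour scale of 5 on either side of the mean). All DMSO libraries are below the mean of each gene with the exception of DMSO 48 h replicate 2 for C4orf3 and EPO, and LGALS14 is highest in the 3 libraries of Molidustat 48 h.

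The treatment was read from 10 HIF target genes. Of the 9 tested, 4 rose at 24 h by edgeR (BNIP3, PDK1, SLC2A1 and SPAG4) and 2 at 48 h (BNIP3 and SPAG4), and the log2 fold change of all 9 was above 0 at each time, with medians of 1.98 and 1.64. BNIP3 was at 158.3 ± 49.0 CPM in DMSO 24 h and 1111 ± 129 in Molidustat 24 h, and at 178.5 ± 26.9 and 1144 ± 52.0 at 48 h. SPAG4, a nuclear envelope protein gene, rose by 4.56 (SE 0.45, adjusted p = 0.000204) at 24 h and 4.22 (SE 0.44, adjusted p = 0.000846) at 48 h on the log2 scale. DESeq2 called 7 and 5 of them, where it called 145 and 349 of the 14274 genes in all, in either direction. Without DMSO 48 h replicate 2, all 10 HIF targets passed the filter, and edgeR called 6 and 2 of them and 116 and 53 of 15253 genes. The medians there, 2.26 and 2.09, are over 10 genes and so not over the same genes as those of the 9.

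The sugar that galectins bind best, N-acetyllactosamine, is built by GlcNAc-transferases (MGAT and B3GNT genes) and galactosyltransferases (B4GALT genes) and capped by sialyltransferases. The list of 28 genes also holds enzymes that trim N-glycans or add fucose to them (MAN2A1, MAN2A2, FUT8), the core 1 O-glycan genes and the UDP-galactose transporter gene SLC35A2. Of these 28 genes, 26 were tested and 0 were called at either time by edgeR, DESeq2 or limma-voom, with a median of 0.03 (24 h) and 0.05 (48 h) on the log2 scale. At an unadjusted p under 0.05 edgeR had 1 gene at 24 h (MAN2A2, lower), or 3.85% beside 5.25% of all genes, and 3 at 48 h (B4GALT4 higher, B4GALT1 and ST3GAL6 lower), or 11.54% beside 13.33%. The median at 48 h was -0.07 without DMSO 48 h replicate 2. MAN2A2, which trims mannose from growing N-glycans, had 13.2 ± 2.55 CPM in DMSO and 4.99 ± 2.21 in Molidustat at 24 h (log2 fold change -1.38, SE 0.61, adjusted p = 0.911), without overlap. At 24 h the groups did not overlap for 3 of the 26 genes, beside 12.3% of all genes. B4GALT1, which adds the galactose itself, varied widely among replicates. It had 70.0, 362.1 and 911.4 CPM in DMSO 24 h, 492.6, 277.7 and 727.2 in Molidustat 24 h, 148.4, 2151 and 328.4 in DMSO 48 h, and 291.9, 255.2 and 169.7 in Molidustat 48 h. Its log2 fold change at 48 h was -1.87 (SE 0.86, adjusted p = 0.365) with DMSO 48 h replicate 2 and -0.01 (SE 0.63, adjusted p = 1) without it.

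The most counted other members of that list were not called. At 24 h and 48 h, MGAT1, which starts complex N-glycans, had 0.15 and 0.15, C1GALT1, which builds core 1 O-glycans, 0.17 and 0.19, and ST6GAL1, whose sialic acid cap blocks many galectins, 0.42 and -0.77 on the log2 scale. Without DMSO 48 h replicate 2, the 48 h values were 0.06 for MGAT1, -0.06 for C1GALT1 and -0.05 for ST6GAL1. B3GNT5 (1.45 at 24 h, SE 1.30) and B3GNT8 (-1.67 at 48 h, SE 1.22) rested on 90 and 128 counts over all libraries.

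Of 20 glycoproteins known to bind galectins, 15 were tested and 0 were called by edgeR at either time, while 14 of the 15 were above 0 on the log2 scale at 24 h (median 0.22) and 8 at 48 h (median 0.04), beside 7352 and 7195 of all 14274 genes. Without DMSO 48 h replicate 2, 10 of the 15 were above 0 at 48 h and the median was 0.26. DESeq2 called FN1 and VTN at 24 h and VTN at 48 h, and limma-voom, which called 64 and 278 genes in all, VTN at both times. At an unadjusted p under 0.05 edgeR had 3 at 24 h (FN1, TFRC and VTN, all higher), or 20% beside 5.25% of all genes, and 6 at 48 h (FN1, TFRC and VTN higher, CD44, INSR and LAMP2 lower), or 40% beside 13.33%. LAMP2, a lysosomal membrane protein gene, had -0.98 at 48 h with DMSO 48 h replicate 2 and -0.03 without it. VTN, the gene of the plasma and matrix protein vitronectin, had 207.2, 143.3 and 179.3 CPM in DMSO 24 h and 430.9, 613.1 and 332.6 in Molidustat 24 h. At 48 h it had 234.9, 101.1 and 254.4 CPM in DMSO and 715.4, 530.6 and 747.1 in Molidustat. The groups did not overlap at either time, as was so for 12.3% of all genes at 24 h and 18% at 48 h. Its log2 fold change was 1.38 (SE 0.38, edgeR adjusted p = 0.298) at 24 h and 1.75 (SE 0.38, adjusted p = 0.0913) at 48 h, and 1.39 (adjusted p = 0.0102) and 1.43 (adjusted p = 0.0438) without DMSO 48 h replicate 2, where it was called at both times.

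FN1, the gene of the matrix protein fibronectin, had 239.7 ± 42.1 CPM in DMSO and 489.9 ± 10.5 in Molidustat at 24 h and 232.0 ± 39.9 and 447.4 ± 66.7 at 48 h (n = 3), with log2 fold changes of 1.03 (SE 0.29, edgeR adjusted p = 0.336) and 0.94 (SE 0.29, adjusted p = 0.208). Without that library it was called at 24 h (1.04, adjusted p = 0.0265) and not at 48 h (0.80, adjusted p = 0.325). INSR, the insulin receptor gene, had -2.16 (SE 0.85) at 48 h with the library, which alone held 3788 CPM, and 0.26 (SE 0.47) without it. BSG, the gene of basigin, had 0.05 and 0.26 at the 2 times, the latter 0.003 without that library. CD44, the hyaluronan receptor gene, was near the detection limit, with at most 3.76 CPM and 0 counts in all Molidustat 48 h libraries. LGALS3BP, the secreted galectin-3 binding protein gene, had 46 counts in all and was not tested.

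Galectin-3, galectin-8 and galectin-9 call in a machinery for damaged membranes. Of 19 such genes, 17 were tested and 0 were called at either time by edgeR, DESeq2 or limma-voom, with medians of -0.02 and 0.03 on the log2 scale. At an unadjusted p under 0.05 there were 1 at 24 h (MAP1LC3B, higher), or 5.88% beside 5.25% of all genes, and 2 at 48 h (ULK1 higher, PRKAA1 lower), or 11.76% beside 13.33%. The median at 48 h was -0.02 without DMSO 48 h replicate 2. MAP1LC3B, which encodes an autophagosome protein, had 1.29 (SE 0.50, adjusted p = 0.806) at 24 h, where Molidustat replicate 2 held 411.6 CPM and the other Molidustat libraries 93.6 and 106.3 beside 63.9 to 101.5 in DMSO. The autophagy receptor genes TAX1BP1 and SQSTM1 had -0.02 and 0.52 at 24 h and 0.30 and 0.21 at 48 h. GABARAPL2, a relative of MAP1LC3B, had 0.47 and 0.74. Without DMSO 48 h replicate 2, the 48 h values were 0.05 for TAX1BP1, -0.08 for SQSTM1 and 0.45 for GABARAPL2. The largest values of the list belonged to thinly counted genes, SLC38A9 with -1.43 (SE 1.01) at 24 h, and TFEB with 1.77 (SE 2.13) and FBXO27 with 1.50 (SE 1.05) at 48 h.

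The labelled cell type was checked against markers, since LGALS14 is known from trophoblast. All 14 hepatocyte markers had counts in every library, with AFP the most abundant at 3908 to 10323 CPM. None of the 14 was called at either time by edgeR, where 2 at 24 h (14.29% beside 5.25% of all genes) and 7 at 48 h (50% beside 13.33%) had an unadjusted p under 0.05. Those were both higher at 24 h, and 6 higher and 1 lower at 48 h. The lower one was HNF4A, a hepatocyte transcription factor gene, with -1.88 (SE 0.82, adjusted p = 0.337) on the log2 scale, and -0.05 without DMSO 48 h replicate 2, which held 1237 CPM. Of the 145 and 349 genes it called in all, DESeq2 called 1 and 3 (SERPINA1 at both times, APOA1 and TF at 48 h) higher. Limma-voom called 1 and 3, of 64 and 278 genes in all, and edgeR without DMSO 48 h replicate 2 called TF and SERPINA1 at each time. Their summed level was 14772 to 19861 CPM in DMSO 24 h, 20414 to 27675 in Molidustat 24 h, 9799 to 19708 in DMSO 48 h and 28556 to 31795 in Molidustat 48 h. It was thus higher with Molidustat at each time without overlap, as LGALS14 was, and its part in the LGALS14 values was not tested. Of 22 trophoblast markers, 13 were at 0 in all 12 libraries, among them the defining CGB3, CGB5, CSH1, GH2, PSG1, ERVW-1 and ERVFRD-1. Only CGA and SDC1, which are also expressed outside the placenta, had counts in every library, and 0 of the 4 tested were called at either time by edgeR, DESeq2 or limma-voom. At an unadjusted p under 0.05 there was 1 at each time (CYP19A1 higher at 24 h, SDC1 lower at 48 h). That is 25% of the 4 tested, beside 5.25% of all genes at 24 h and 13.33% at 48 h. CYP19A1, the aromatase gene, had 0 counts in each DMSO 24 h library and 1, 24 and 0 in Molidustat 24 h, so its 24 h value rests mainly on replicate 2. At 48 h it had 12, 1 and 26 counts in DMSO and 0, 0 and 17 in Molidustat. SDC1 had -1.51 at 48 h, and -0.27 without DMSO 48 h replicate 2. The summed level of the trophoblast list was 131.8, 149.8 and 247.1 CPM in DMSO 24 h, 107.9, 174.3 and 110.4 in Molidustat 24 h, 164.3, 876.2 and 188.8 in DMSO 48 h and 139.5, 202.0 and 116.1 in Molidustat 48 h. SDC1 made up most of this sum, with 873 CPM in DMSO 48 h replicate 2, so the sum does not bear on the scarce placental markers.

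Markers of other cells were low with the exception of LYZ. Of 6 eosinophil and basophil markers, 4 were at 0, including EPX, and PRG2 (17 counts in all) was the most abundant. Of 9 leukocyte markers, PTPRC had 7 counts in all and CD3E 0, while LYZ, which encodes lysozyme, had 190.8 ± 37.8 CPM in DMSO 24 h, 153.9 ± 8.63 in Molidustat 24 h, 122.7 ± 19.4 in DMSO 48 h and 54.3 ± 15.7 in Molidustat 48 h. Its log2 fold change with Molidustat was -0.31 (SE 0.30, edgeR adjusted p = 0.999) at 24 h and -1.17 (SE 0.30, adjusted p = 0.175) at 48 h. There DESeq2 and limma-voom called it lower, among 349 and 278 of 14274 genes called in either direction. From 24 h to 48 h it was -0.64 (SE 0.30) in DMSO and -1.50 (SE 0.31) in Molidustat. Of edgeR, DESeq2 and limma-voom only DESeq2 called the latter, among 12 of 14274 genes that it called in that comparison. The leukocyte list, 3 of whose genes were tested and 0 called by edgeR, summed to 105.5 to 142.5 CPM in DMSO 48 h and 53.2 to 86.8 in Molidustat 48 h, most of it LYZ, and its part in the galectin values was not tested. Against the direction of LYZ, 2 of the 3 had a log2 fold change above 0 at each time, with medians of 0.49 at 24 h and 0.25 at 48 h. Without DMSO 48 h replicate 2, CD14 had 1.33 and 1.73 and CD68 0.50 and 0.22 at 24 h and 48 h, neither of them called. Of 7 endothelial and fibroblast markers, VWF was at 0 and the list summed to 1.38 to 11.9 CPM.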

How the data were processed

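The authors prepared 3′ libraries with the QIAseq UPX 3′ kit, aligned the reads to GRCh38 with STAR 2.7.9a, counted them with HTSeq 0.11.2 and used DESeq2 1.26.0 for normalization and testing. The submitters' processing notes also name bcl2fastq 2.17.1.14 and cutadapt 1.9.1. What the authors deposited are raw counts for each gene, in whole numbers. The annotation release, the strand setting and the use of molecular identifiers are not given in the sources used here. Each file ends in 5 summary lines that name no gene and stayed out of library sizes, in which no feature took 17.1 to 50.4% and multiple alignment 7.08 to 10.4% of listed reads. The number for low quality equals that for multiple alignment in every file and was counted once. No column was left out (0).

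Genes were named with GENCODE release 44 (60437 of 60666). EdgeR 4.0.16 (R 4.3.3) was fitted to all 12 libraries with TMM, filterByExpr (minimum count 10, total 15) and the quasi-likelihood test, two-sided, with Benjamini-Hochberg adjustment over 14274 of 28430 counted genes. A call needed an adjusted p under 0.05 together with a change of more than 1 on the log2 scale. SE is the log2 fold change over the root of F. An exact permutation test of 3 against 3 cannot go below 0.1. Correlations used log2 CPM with a prior count of 2. DESeq2 1.42.0 and limma 3.58.1 (voom, quality weights) were alternatives, beside other scalings, filters, a replicate block and each library left out. The tests were tried on simulated data, of which no result is given here.

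The members, lists and tests were chosen with earlier results of these data known. Of the HIF targets, the genes called by edgeR were named, and of the neighbours the nearest 4 tested on each side. From the remaining lists other than the cell type markers, the genes called, the 4 most counted and the 2 with the largest absolute fold change at a time were named. Genes named for an unadjusted p, at a range's end or as cell type markers were picked after their values were seen. Promoter windows came from RefSeq (GRCh38.p14).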

Additional observations from a re-analysis of the deposited data

How the results depend on the processing

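The number of galectins other than LGALS14 called was 0 in every comparison under all alternatives that gave a value. LGALS14 was not tested with at least 10 counts in every library, and the difference between times was not run on only 2 groups. Replicate numbers did not pair the samples (r between same-numbered deviations -0.09 to 0.139 over 18 pairs, 3 of them over 0.1), and with the replicate block the number of galectins called stayed 0. The LGALS14 difference between 24 h and 48 h of Molidustat, given with no test, ranged from 1.86 to 2.46 on the log2 scale with 1 library left out. Directions turned in 3 values near 0 or set by 1 library, none of them called, and the cause was not tested. LGALS3 between the times in DMSO (0.016) was -0.15 with total counts, -0.019 with at least 10 counts in every library and -0.17 to 0.17 with 1 library left out. LGALSL at 48 h (-0.73) was 0.15 with limma-voom and -1.04 to 0.18 with 1 library left out. LGALS8 between the times in Molidustat (-0.08) was -0.23 to 0.013 with 1 library left out. The number of all genes called in either direction, 33 at each time, was less stable. With 1 library left out it was 20 to 116 at 24 h, highest without DMSO 48 h replicate 2 and lowest without DMSO 24 h replicates 1 (20) and 2 (21). At 48 h it was 13 to 327, with 327, 53 and 198 without DMSO 48 h replicates 1, 2 and 3 and 17, 14 and 13 without Molidustat 48 h replicates 1, 2 and 3. DESeq2 called 145 and 349, limma-voom 64 and 278, edgeR with no filter 106 and 764 and with only the 2 groups 57 and 7, with the replicate block 30 and 22, and with at least 10 counts in every library 15 and 15. Depth limits LGALS1, LGALS2 and LGALS4, where 3 counts correspond to 0.31 to 3.19 CPM per library.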
